A study of Ovis aries with 16 samples.

Results

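Collagen messenger RNAs were followed in the left ventricle of 16 fetal sheep, with 1 array per fetus. The 4 genes, of 866 named on the array, were COL1A2 and COL3A1, which encode chains of fibrillar collagens, COL4A1, a chain of the basement membrane network, and COL12A1, the chain of a fibril-associated collagen. Every non-control probe that the array files assign to 1 of these 4 genes by gene name, accession or description was taken, which gave 7 of the 15008 probes: 1 for COL1A2, 4 for COL3A1, 1 for COL4A1 and 1 for COL12A1. In twin sets 1 to 4, 1 fetus received losartan, a blocker of the angiotensin II type 1 receptor, and its twin was not infused. In twin sets 5 to 8, 1 fetus received angiotensin II and its twin was not infused. This made 4 groups of 4 fetuses: losartan, the untreated twins of the losartan fetuses, angiotensin II, and the untreated twins of the angiotensin II fetuses. Surgery to place the catheters was at 125 to 126 days (term is 145 days), and the infusions lasted 5 days. The labels do not say whether the untreated twins carried catheters, and they give no breed or sex.

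Collagens are trimers whose chains wind into a triple helix, with a glycine at each turn of the repeat. Type I collagen, in which the COL1A2 chain takes part, and type III collagen, made of COL3A1 chains, form the fibrils of the cardiac interstitium and are made mainly by fibroblasts. Type IV collagen forms sheets around cardiomyocytes and under the endothelium. Type XII collagen binds to the surface of type I fibrils through a short triple-helical part, and most of its chain is not collagenous. In adult hearts, angiotensin II acting on the type 1 receptor is known for raising fibrillar collagen synthesis.

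The probe letters are shown because they tell the triple-helical targets from the others. A glycine codon starts with GG, so a stretch of triple helix carries GG every 9 bases. In 4 of the 7 probes, 6 or 7 glycine codons stood at this spacing, and they are in capitals in the sequences that follow, which are given 5′ to 3′ as in the array files. A run of at least 5 such codons was present in 27 of all 15008 probes (0.18%) and in 7 of the 17 probes with a collagen name.
COL1A2, A_70_P024601: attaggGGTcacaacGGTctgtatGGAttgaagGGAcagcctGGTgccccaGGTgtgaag
COL3A1, A_70_P006991: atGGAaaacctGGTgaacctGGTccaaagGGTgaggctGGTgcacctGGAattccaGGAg
COL3A1, A_70_P048191: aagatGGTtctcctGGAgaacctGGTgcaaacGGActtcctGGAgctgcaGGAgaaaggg
COL4A1, A_70_P047986: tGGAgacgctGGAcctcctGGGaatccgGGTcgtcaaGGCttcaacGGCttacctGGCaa

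The other 3 probes carried no such run. COL3A1 had a pair of them, which are shown because they share 58 of their 60 bases and so measure 1 target.
COL3A1, A_70_P016306: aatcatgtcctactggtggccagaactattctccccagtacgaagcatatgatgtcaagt
COL3A1, A_70_P016307: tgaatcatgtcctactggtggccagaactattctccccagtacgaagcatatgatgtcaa
The COL12A1 probe, A_70_P007201, had a GC content of 35%, the lowest of the 7, and its first 30 bases were gttagttatcgaaagcagttggaaaatgtt. Apart from probes of the same gene, the longest run that a collagen probe shared with any other probe was 16 bases, between A_70_P048191 and a probe without a gene name. The array files give no genome position for these probes.

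Each value is a log2 processed signal set against its own array's 75th percentile, so 0 is the level of that percentile. They compare arrays for 1 probe and do not rank probes. That percentile stood at 1099 to 1670 fluorescence units, and an array had 8601 to 9615 of its 15008 probes well above background. All 7 collagen probes entered the tests, which needed 1 group with each of its arrays well above background (8970 probes). The COL1A2 probe was well above background on 15 of 16 arrays (3 of 4 untreated twins of the angiotensin II fetuses), the COL4A1 probe on 15 (3 of 4 losartan fetuses), and the other 5 probes on all 16.

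Of the arrays, 3 stood apart: those of the untreated twin of set 2 and of the angiotensin II fetuses of sets 7 and 8. Their scores on the first principal component, which held 32.1% of the variance, were 30.1 to 39.8, against -19.0 to -0.44 on the other 13. They lay in 1 row of slide 2, which also held the losartan fetus of set 4. On these 3 arrays the log2 signal of the bright-corner control spots was 17.3 to 17.8, against 14.5 to 15.2 on the others. Of the tested probes with a value on every array, 11.3% were higher on all 3 of these arrays than on any of the other 13. Among the 7 collagen probes, 3 were: COL1A2, COL4A1 and A_70_P016306 of COL3A1. Results are therefore given with and without twin sets 2, 7 and 8, and the part of these arrays in them was not tested beyond that. Slide 1 held 1 losartan fetus and 3 of their untreated twins, 2 angiotensin II fetuses and 2 of their untreated twins, and slide 2 held 3, 1, 2 and 2 of these groups.

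COL12A1 was lower in the losartan fetus in 4 of 4 pairs and higher in the angiotensin II fetus in 4 of 4 pairs, but neither difference passed the threshold, an adjusted p under 0.05 over all 8970 tested probes. In losartan fetuses of sets 1 to 4 the COL12A1 values were -0.22, -0.42, -0.73 and -0.17, against 0.21, 1.10, 0.95 and 0.52 in their untreated twins. Every losartan fetus lay below every untreated twin of its arm, as in 4.07% of tested probes and in 3 of the 7 collagen probes. In angiotensin II fetuses of sets 5 to 8 the values were 1.27, 0.34, 0.39 and -0.30, against -0.17, 0.14, 0.05 and -0.48 in their untreated twins. These groups overlapped, and the fetus of set 5 was the highest of all 16. The within-pair log2 ratios of COL12A1 were -0.43, -1.53, -1.67 and -0.69 with losartan. With angiotensin II they were 1.44, 0.19, 0.33 and 0.18, so most of the mean in that arm came from set 5.

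The group mean of COL12A1 was -0.39 ± 0.25 in losartan fetuses and 0.70 ± 0.41 in their untreated twins (SD, n = 4 each). It was 0.42 ± 0.65 in angiotensin II fetuses and -0.11 ± 0.28 in their untreated twins (SD, n = 4 each). In limma with the twin set as a block, the losartan difference was -1.08 (SE 0.25, 95% interval -1.65 to -0.51), a 2.12-fold lower level, with an adjusted p of 0.091. By unadjusted p (0.0018 in limma) it ranked 176th of 8970, and 109 probes passed the threshold with losartan, or 1.22%. The angiotensin II difference in COL12A1 was 0.53 (SE 0.25, interval -0.03 to 1.10), a 1.45-fold higher level, with a limma adjusted p of 0.48. With angiotensin II no probe passed (0%), while 938 had an unadjusted limma p under 0.05. The losartan difference thus exceeded the spread between pairs before adjustment and missed the threshold after it.

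The difference between the angiotensin II effect and the losartan effect on COL12A1 was 1.61 (SE 0.36, interval 0.81 to 2.42), with a limma adjusted p of 0.059. In this comparison 148 probes passed, or 1.65%. An exact permutation test of the 8 within-pair ratios between the arms gave a two-sided p of 0.0286, the smallest that 70 assignments allow. It was run on each of the 7 probes, with no adjustment for that number, and COL12A1 alone reached that value. Being lower in all 4 losartan pairs and higher in all 4 angiotensin II pairs was shown by 3.08% of tested probes, and by 1 of the 7 collagen probes. The 3 arrays that stand apart did not lie above the others for COL12A1: they were at 1.10, 0.39 and -0.30, within the range of -0.73 to 1.27 of the other 13.

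Without twin sets 2, 7 and 8 the COL12A1 differences were -0.93 with losartan (SE 0.29, limma adjusted p = 0.25) and 0.81 with angiotensin II (SE 0.35, adjusted p = 0.95). The difference of the effects was then 1.75 (SE 0.46, adjusted p = 0.18). The angiotensin II difference without these sets came from sets 5 and 6 alone, with ratios of 1.44 and 0.19. With only set 5 left out, the angiotensin II difference was 0.23. Slide moved none of these in direction. With slide as a further block the losartan difference was -1.07, and within slides 1 and 2 it was -1.28 and -1.38. The angiotensin II difference was 0.53 with slide as a block, 0.70 within slide 1 and 0.36 within slide 2. The single-slide fits left out the twin pairing, and in them 1 group of the losartan arm was down to 1 array, which was taken to vary like the other groups. On slide 1 this was the losartan fetus of set 3, whose COL12A1 value of -0.73 was the lowest of all 16. On slide 2 it was the untreated twin of set 2, at 1.10, whose array stands apart.

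The untreated fetuses of the arms were not alike in COL12A1. The 4 untreated twins of the losartan fetuses (0.21 to 1.10) all lay above the 4 untreated twins of the angiotensin II fetuses (-0.48 to 0.14). This separation was seen in 1.09% of tested probes and in 2 of the 7 collagen probes, COL12A1 and COL1A2, where the nearest values were -2.92 and -2.93. The untreated difference in COL12A1 was 0.81 (SE 0.21, interval 0.32 to 1.29, two-sided exact permutation p = 0.0286, unadjusted, the smallest possible and also that of COL1A2) and ranked 19th of 8970 by limma p. Its limma adjusted p was 1.00, and no probe passed (0%), while 300 had an unadjusted p under 0.05. Within slides 1 and 2 the untreated difference in COL12A1 was 0.46 and 1.43. That of slide 2 rests on 1 untreated twin of the losartan arm, that of set 2, whose array stands apart. Without sets 2, 7 and 8 the untreated difference was 0.57 (limma adjusted p = 0.93). Set against the untreated twins of the other arm, the losartan fetuses overlapped with them in COL12A1 and were lower by a mean of -0.27 on the log2 scale (exact permutation p = 0.23, two-sided). The angiotensin II fetuses likewise overlapped with the untreated twins of the losartan arm, with a mean difference of -0.27 (exact permutation p = 0.54).

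**Figure D1:**
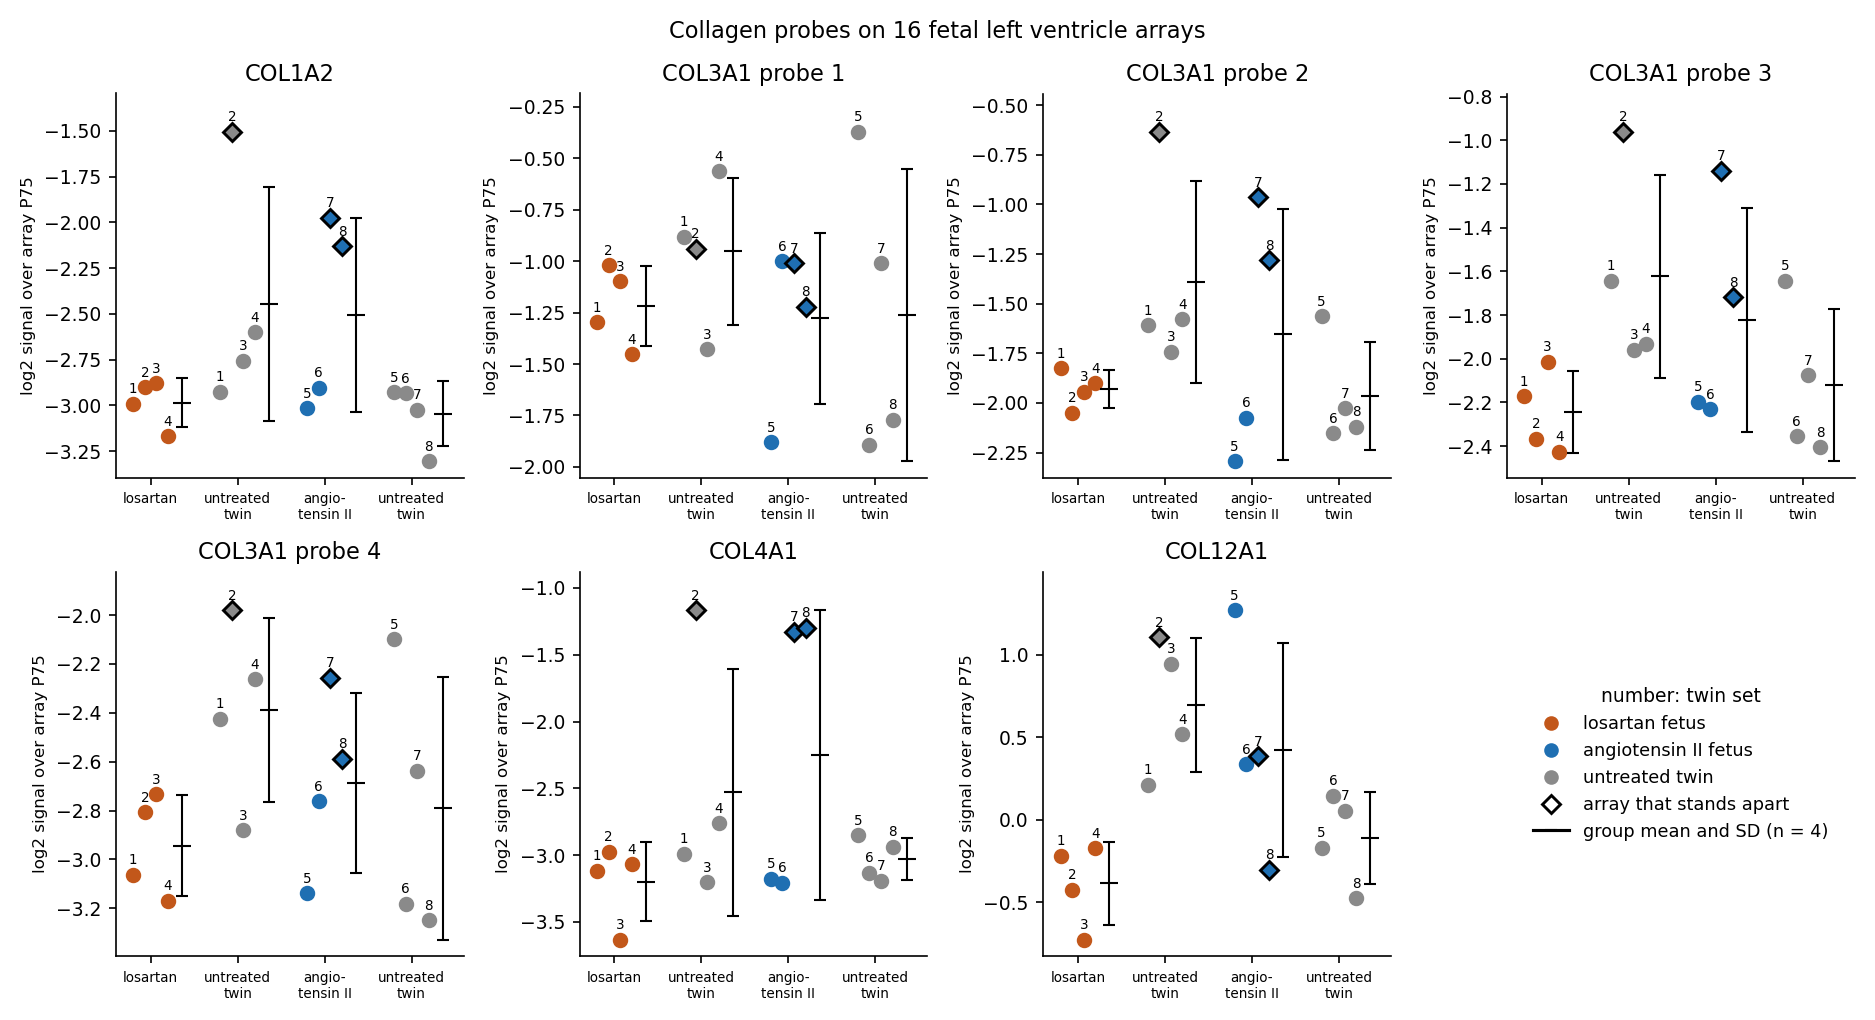
Log2 signal over the 75th percentile of the array for the 7 collagen probes; each point is 1 fetus, numbered by twin set, with the group mean and SD (n = 4) beside it. The 3 arrays outlined in black lie above all others for COL1A2, COL4A1 and COL3A1 probe 2 (A_70_P016306). The losartan fetuses lie below all their untreated twins for COL12A1 and for COL3A1 probes 2 and 3. COL3A1 probes 1 to 4 are A_70_P006991, A_70_P016306, A_70_P016307 and A_70_P048191.

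COL1A2 and COL4A1 followed the 3 arrays. For COL1A2 the losartan fetuses of sets 1 to 4 were at -2.99, -2.90, -2.88 and -3.17, against -2.92, -1.51, -2.76 and -2.60 in their untreated twins. The angiotensin II fetuses of sets 5 to 8 were at -3.02, -2.90, -1.97 and -2.13, against -2.93, -2.93, -3.02 and -3.30 in their untreated twins. The 3 highest values of COL1A2 were those of the 3 arrays that stand apart, and the other 13 arrays reached at most -2.60.

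COL1A2 was lower in 4 of 4 losartan pairs and higher in 3 of 4 angiotensin II pairs. Its ratios outside sets 2, 7 and 8 were -0.07, -0.12 and -0.57 with losartan and -0.09 and 0.03 with angiotensin II. In sets 2, 7 and 8 they were -1.40, 1.05 and 1.17. The losartan difference in COL1A2 was -0.54 (SE 0.26, interval -1.13 to 0.05, limma adjusted p = 0.45) and the angiotensin II difference was 0.54 (SE 0.26, interval -0.05 to 1.13, adjusted p = 0.48). Without sets 2, 7 and 8 they were -0.25 (SE 0.13, adjusted p = 0.49) and -0.03 (SE 0.16, adjusted p = 0.996).

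For COL4A1 the losartan fetuses were at -3.12, -2.97, -3.63 and -3.07, against -2.99, -1.17, -3.20 and -2.76 in their untreated twins. The angiotensin II fetuses were at -3.18, -3.21, -1.33 and -1.30, against -2.85, -3.13, -3.19 and -2.94 in their untreated twins. The 3 arrays that stand apart were higher than the mean of the other 13 by 1.83 on the log2 scale, against 1.08 for COL1A2 and 0.30 for COL12A1. No array of the other 13 was above -2.76.

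COL4A1 was lower in 4 of 4 losartan pairs and higher in 2 of 4 angiotensin II pairs, those of sets 7 and 8. The losartan difference in COL4A1 was -0.67 (SE 0.39, interval -1.54 to 0.21, limma adjusted p = 0.53) and the angiotensin II difference was 0.78 (SE 0.39, interval -0.10 to 1.65, adjusted p = 0.49). Without sets 2, 7 and 8 the losartan difference was -0.29 (SE 0.12, adjusted p = 0.37) and the angiotensin II difference was -0.20 (SE 0.14, adjusted p = 0.97), of the opposite sign. Within slide 1, which holds none of the 3 arrays, the angiotensin II difference was 0.02 in COL1A2 and -0.03 in COL4A1. Within slide 2 it was 1.06 and 1.58, with adjusted p of 0.028 and 0.0030, and both angiotensin II fetuses on that slide, of sets 7 and 8, have arrays that stand apart. The 1 losartan fetus on slide 1, that of set 3, had the lowest COL4A1 value of all arrays, -3.63. Resting on that fetus, the losartan difference within slide 1 was -0.12 in COL1A2 and -0.65 in COL4A1. Within slide 2 it was -1.52 and -1.89 (adjusted p = 0.012 and 0.0022), against a single untreated twin, which was the array of set 2. With slide as a further block it was -0.80 in COL1A2 and -1.18 in COL4A1, and the angiotensin II difference was 0.54 and 0.78.

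**Figure D2:**
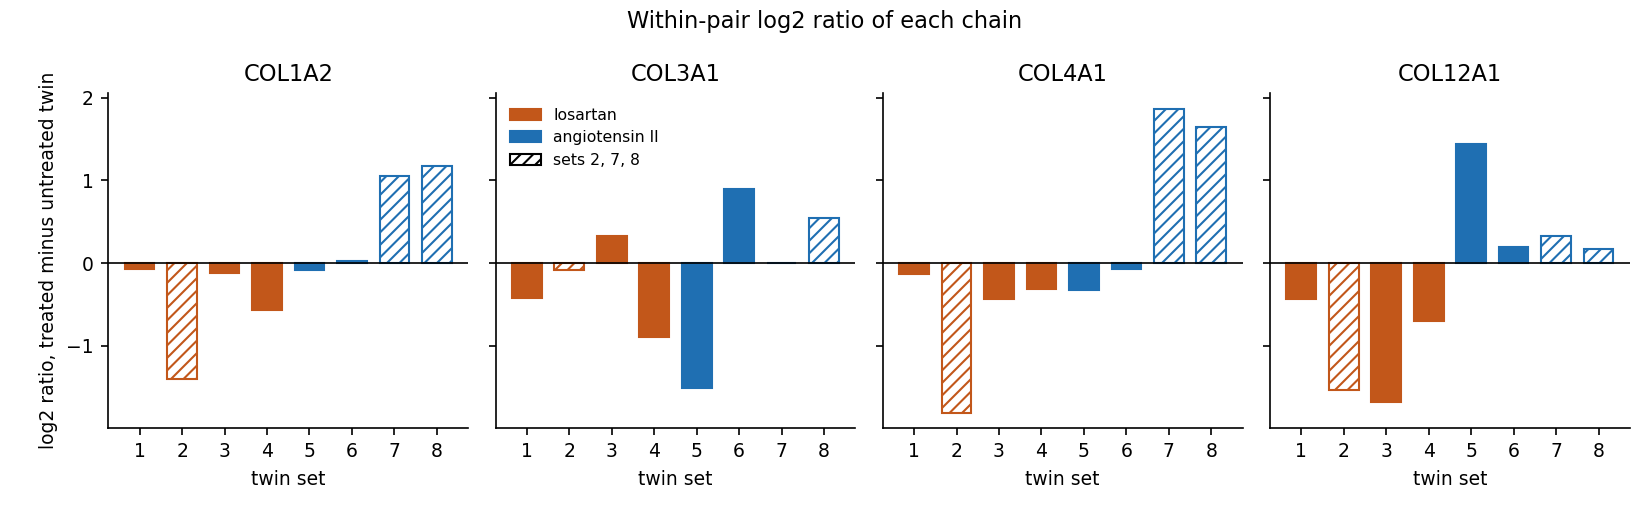
Within-pair log2 ratio, treated fetus minus untreated twin, for each twin set and for the probe that represents each gene (COL3A1 by A_70_P006991); hatched bars are the sets that hold an array standing apart. For COL1A2 and COL4A1 the longest bars are those of sets 2, 7 and 8, while COL12A1 is below 0 in sets 1 to 4 and above 0 in sets 5 to 8.

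The 4 COL3A1 probes did not show 1 pattern. A_70_P006991, the probe that represents the gene, was at -1.30, -1.02, -1.10 and -1.45 in losartan fetuses, against -0.88, -0.94, -1.43 and -0.56 in their untreated twins. It was at -1.88, -1.001, -1.01 and -1.22 in angiotensin II fetuses, against -0.37, -1.89, -1.01 and -1.77 in their untreated twins. The groups overlapped in both arms, the highest value was that of the untreated twin of set 5, and the 3 arrays that stand apart lay within the range of the others.

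The overlapping pair was measured on its own target. A_70_P016306 was at -1.82, -2.05, -1.94 and -1.90 in losartan fetuses, against -1.61, -0.63, -1.74 and -1.58 in their untreated twins. It was at -2.29, -2.07, -0.96 and -1.28 in angiotensin II fetuses, against -1.56, -2.15, -2.03 and -2.12 in their untreated twins. Here the 3 arrays were above all others, and the losartan fetuses lay below all untreated twins of their arm. Of all tested probes, 4.07% separated these groups in that way, as did 3 of the 7 collagen probes (COL12A1 and the overlapping pair). The partner probe A_70_P016307 was at -2.17, -2.37, -2.01 and -2.42 in losartan fetuses, against -1.64, -0.96, -1.96 and -1.93 in their untreated twins. It was at -2.20, -2.23, -1.14 and -1.72 in angiotensin II fetuses, against -1.64, -2.35, -2.08 and -2.40 in their untreated twins. It correlated with A_70_P016306 at r = 0.93 over the 16 arrays, as a description of 1 target on the same arrays.

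The probe A_70_P048191, whose target is triple-helical, was at -3.06, -2.81, -2.73 and -3.17 in losartan fetuses, against -2.42, -1.98, -2.88 and -2.26 in their untreated twins. It was at -3.14, -2.76, -2.26 and -2.59 in angiotensin II fetuses, against -2.10, -3.18, -2.64 and -3.25 in their untreated twins. It correlated with A_70_P006991 at r = 0.85 over 16 arrays and 0.94 over the 10 arrays without sets 2, 7 and 8. A_70_P006991 and A_70_P016306 correlated at 0.49 over 16 arrays and 0.81 over those 10. All these arrays share their signal scaling and slides, so the correlations only describe them.

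On all 16 arrays none of the COL3A1 probes passed a test. The losartan differences were -0.26, -0.54, -0.62 and -0.56 for A_70_P006991, A_70_P016306, A_70_P016307 and A_70_P048191, with limma adjusted p of 0.36 to 0.79. The angiotensin II differences were -0.02, 0.31, 0.30 and 0.11, with adjusted p of 0.62 to 0.99. Without sets 2, 7 and 8 the losartan differences were -0.33, -0.25, -0.36 and -0.47 and the angiotensin II differences -0.31, -0.33, -0.22 and -0.31. With slide as a further block A_70_P006991 gave -0.39 with losartan and -0.02 with angiotensin II. Within slides 1 and 2 it gave -0.14 and -0.32 with losartan, and 0.01 and -0.04 with angiotensin II. Within slide 2, A_70_P016306 gave -1.29 with losartan and 2.01 in the difference of the effects, and A_70_P016307 gave 1.95 in that difference. These values rest on 1 untreated twin of the losartan arm, that of set 2, whose array stands apart. The arrays of both angiotensin II fetuses on that slide, of sets 7 and 8, stand apart too. With the authors' value table A_70_P016306 and A_70_P016307 passed in the difference of the effects, at 0.82 and 0.99 (adjusted p = 0.038 and 0.028). So did 1734 of all probes tested with that table.

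A further 5 probes carry no name of these genes in the files but share an accession or sequence cluster with a named probe; they were picked out after the values had been seen and belong to no count of the 7. The COL12A1 partner, A_70_P008096, shares at most 6 bases in a row with A_70_P007201 and correlated with it at r = 0.97. It was at -0.74, -1.13, -1.18 and -1.02 in losartan fetuses, against -0.38, 0.72, 0.22 and -0.23 in their untreated twins. It was at 0.52, -0.38, -0.10 and -1.18 in angiotensin II fetuses, against -0.62, -0.54, -0.57 and -1.17 in their untreated twins. It was lower in 4 of 4 losartan pairs and higher in 3 of 4 angiotensin II pairs. Its differences were -1.10 with losartan (SE 0.25, limma adjusted p = 0.076) and 0.44 with angiotensin II (SE 0.25, adjusted p = 0.51), and the difference of the effects was 1.54 (SE 0.35, adjusted p = 0.061).

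The COL1A2 partner, A_70_P061466, gave -0.48 with losartan and 0.51 with angiotensin II, and -0.18 and 0.10 without sets 2, 7 and 8. The COL3A1 partners diverged. A_70_P001658 gave -0.78 with losartan and 0.80 with angiotensin II, and on the 3 arrays that stand apart it was at 0.08 to 0.57, against at most -0.94 on the others. A_70_P048049 gave -0.25 and -0.13, and A_70_P050861, with 13304 to 34862 fluorescence units, gave -0.14 and -0.38. The mean of the 3 arrays minus that of the other 13 was -0.29 and -0.53 for these last probes. It was 1.65 for A_70_P001658 and 0.15 to 0.95 for the 4 named COL3A1 probes, so probes grouped under 1 gene did not move together on these arrays.

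**Figure D3:**
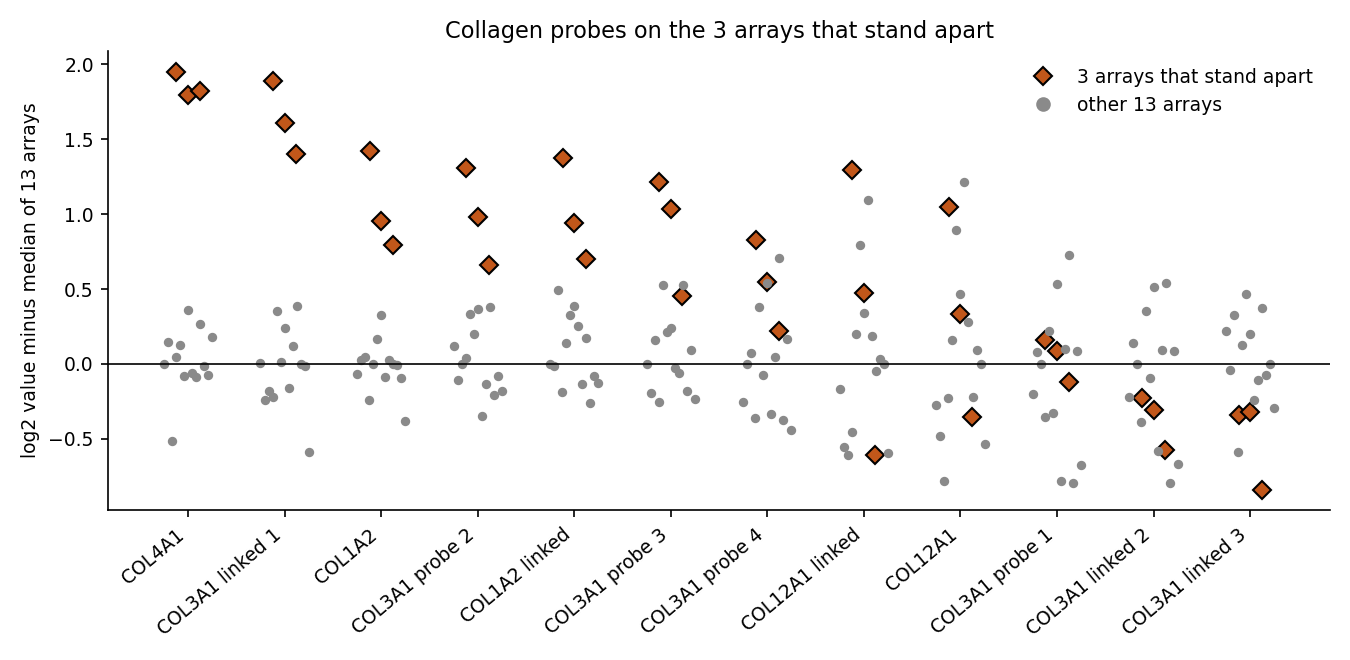
Values of the 7 collagen probes and 5 linked probes on each array, minus the median of the 13 arrays that do not stand apart, in log2 units; diamonds are the untreated twin of set 2 and the angiotensin II fetuses of sets 7 and 8. COL4A1 and COL3A1 linked 1 (A_70_P001658) lie highest on these 3 arrays, and COL12A1 lies among the others. COL3A1 linked 2 and 3 (A_70_P048049 and A_70_P050861) lie below that median on all 3. For linked 2 they are within the range of the other 13, and for linked 3 only the fetus of set 8 is below that range.

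Taken over the 7 probes, losartan estimates were below 0 in 7 and angiotensin II estimates above 0 in 6, against 48.4% and 45.4% of all tested probes. Being lower in 4 of 4 losartan pairs was shown by 5 of the 7, against 11.1% of tested probes, and being higher in 4 of 4 angiotensin II pairs by 1 of the 7, against 7.69%. The median estimate of the 7 probes was -0.56 with losartan and 0.31 with angiotensin II, beside 0.01 and -0.03 over all tested probes. Without sets 2, 7 and 8 the median of the 7 was -0.33 with losartan and -0.22 with angiotensin II, beside -0.00 and -0.02. Then 7 of the 7 losartan estimates were below 0 and 1 of the 7 angiotensin II estimates was above 0, that of COL12A1. Probes of 1 gene are not independent, and 4 of the 7 are COL3A1. The genes were also chosen with earlier results of these data known, so these shares describe the 7 probes and test nothing.

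**Figure D4:**
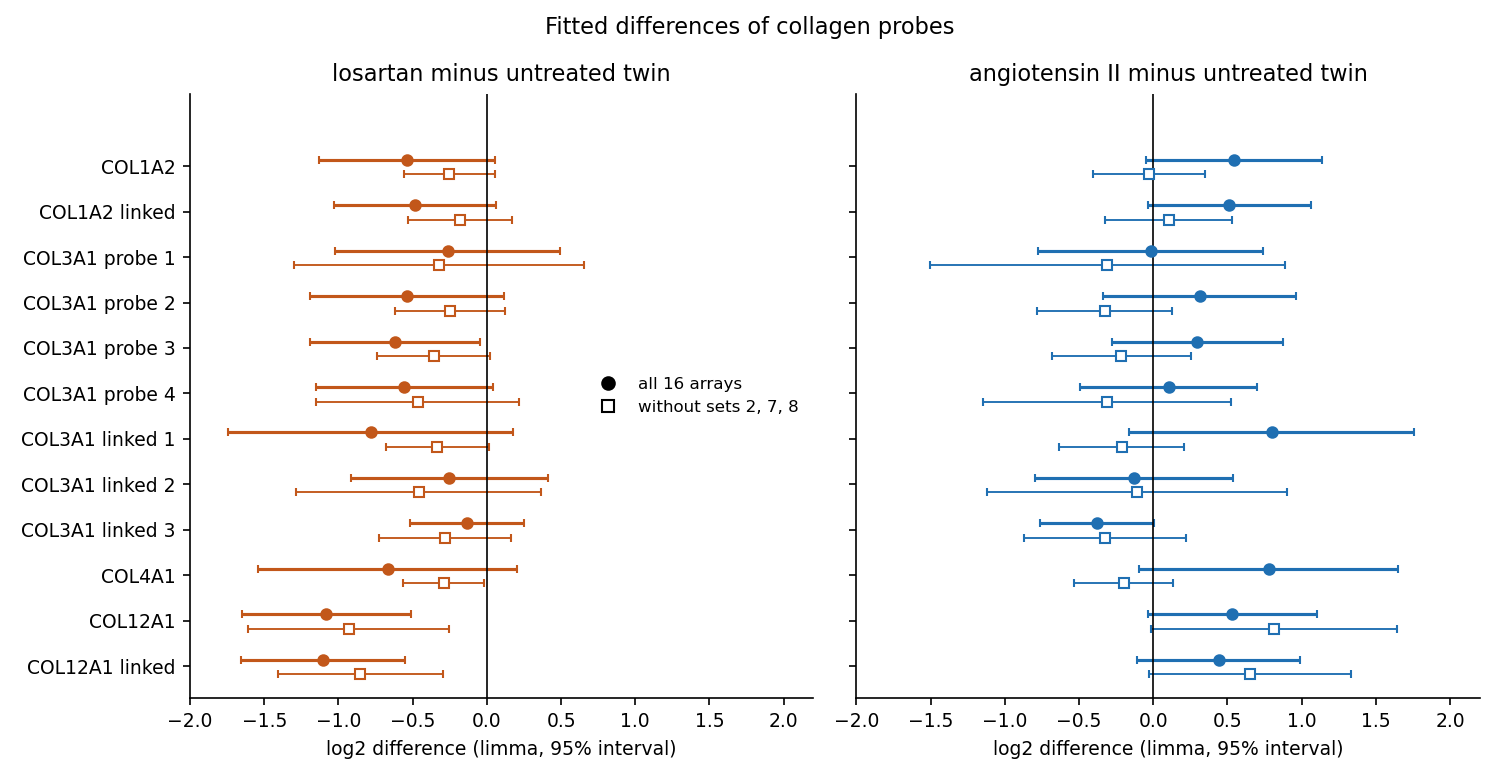
Limma differences with 95% intervals for the collagen probes and the linked probes, on all 16 arrays (filled) and without twin sets 2, 7 and 8 (open). The open angiotensin II symbols lie at or below 0 for COL1A2, COL4A1 and the COL3A1 probes and above 0 for both COL12A1 probes and the COL1A2 linked probe.

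The chains were compared by their within-pair ratios, COL12A1 minus each other chain, over 4 pairs per arm. With losartan the COL12A1 ratio was below that of COL1A2 in 4 of 4 pairs, with a mean difference of -0.54 ± 0.68 (SD, n = 4 pairs). Against COL4A1 the mean difference was -0.41 ± 0.63 and against COL3A1 -0.82 ± 1.08, each below 0 in 3 of 4 pairs. With angiotensin II the mean differences were -0.01 ± 1.14 against COL1A2, -0.24 ± 1.57 against COL4A1 and 0.55 ± 1.66 against COL3A1, each below 0 in 2 of 4 pairs. Leaving out sets 2, 7 and 8, these differences were 0.84, 1.01 and 1.12 with angiotensin II, so the first and second turned sign, and -0.68, -0.64 and -0.61 with losartan. That left only sets 5 and 6 with angiotensin II, and set 5 made most of these means. The differences against COL1A2, COL4A1 and COL3A1 were 1.53, 1.76 and 2.95 in set 5. In set 6 they were 0.16, 0.27 and -0.70. COL4A1 and COL1A2 differed by -0.13 ± 0.30 with losartan and 0.24 ± 0.49 with angiotensin II (SD, n = 4 pairs each). Exact sign-flip tests over 4 pairs cannot go below 2 of 16 assignments, so no such difference could pass, and between the arms the 6 pairs of chains gave exact permutation p of 0.17 to 0.83. Within an arm these tests could thus not tell the fibrillar, basement membrane and fibril-associated chains apart, whatever the spread. Between the arms no pair of chains had an unadjusted permutation p under 0.05. COL3A1 entered these comparisons by A_70_P006991 alone.

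Over the 16 arrays COL1A2 and COL4A1 correlated at r = 0.90, and over the 10 arrays without sets 2, 7 and 8 at 0.22. COL12A1 correlated with COL1A2 at 0.40, with COL4A1 at 0.24 and with COL3A1 at -0.09 over 16 arrays. Over the 10 arrays these r were 0.26, 0.27 and -0.33. Among 449 other named genes, those most like COL12A1 were IL18, a cytokine (r = 0.84 over 16 arrays, 0.88 over 10), VIM, the intermediate filament vimentin (0.73 and 0.70), and FOS, an immediate early transcription factor (0.72 and 0.82). For COL4A1 they were CXCL1, a neutrophil-attracting chemokine (0.97 and 0.41), SLC16A1, a lactate transporter (0.96 and 0.43), and DERL1, a factor of protein export from the endoplasmic reticulum (0.95 and 0.65). For COL1A2 they were PPP1R12A, a myosin phosphatase subunit, YY1, a transcription factor, and DKC1, a pseudouridine synthase. Their r was 0.92 to 0.93 over 16 arrays and 0.34 to 0.62 over 10. For COL3A1, by A_70_P006991, they included ARF1, a small GTPase of vesicle traffic (0.59 and 0.64), and AKT1, a kinase of growth factor signalling (0.58 and 0.75). Among these most alike genes, each r named for COL1A2 and COL4A1 was lower over the 10 arrays. Those of the most alike genes named for COL12A1 and COL3A1 were higher, except VIM. Arrays share scaling and slides, so these r are descriptions.

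Of 33 other collagen chains looked up, 7 had a named probe and 4 entered the tests; none passed. COL1A1, the partner of COL1A2 in type I collagen, gave -0.28 with losartan and 0.71 with angiotensin II (limma adjusted p = 0.795 and 0.487), and 0.21 and 0.12 without sets 2, 7 and 8. COL4A2, the partner of COL4A1, gave -0.36 and 0.44 (adjusted p = 0.575 and 0.495), and -0.14 and -0.09 without these sets. Both were higher on the 3 arrays that stand apart than on any other. COL5A2, a chain of fibril-nucleating type V collagen, gave -0.33 and 0.04, and COL2A1, the chain of cartilage collagen, 0.09 and 0.12. Without the 3 sets COL5A2 gave -0.22 and -0.20, and COL2A1 0.18 and -0.04. COL4A3, COL6A3 and COL16A1 did not pass the filter for testing, with 1 COL6A3 probe well above background on 1 array and the others on none.

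Genes that bind, cut or signal to collagen were taken from lists. The lists were written with earlier results of these data known, so the share of a list that passed is only a description. None of 28 genes of collagen synthesis and cross-linking had a named probe. Of the collagen-associated matrix proteins 3 of 31 were measured and none passed: the small proteoglycans DCN (-0.25 with losartan, -0.07 with angiotensin II) and BGN (-0.26 and 0.16), and FBLN1, fibulin 1 (-0.04 and 0.03). Of the breakdown list 4 of 21 were measured, and in the difference of the effects 2 passed, where 1.65% of all tested probes did. These were TIMP1, an inhibitor of matrix metalloproteinases, at 0.65 (SE 0.13, limma adjusted p = 0.044), and CTSB, the lysosomal protease cathepsin B, at 0.93 (SE 0.18, adjusted p = 0.038). TIMP1 was -0.45 with losartan and 0.19 with angiotensin II (adjusted p = 0.052 and 0.48), and CTSB -0.38 and 0.56 (adjusted p = 0.255 and 0.450). Without sets 2, 7 and 8 none of the 4 passed, with differences of the effects of 0.58 for TIMP1 and 0.69 for CTSB. TIMP3, another such inhibitor, gave -0.30 and 0.92 (0.11 and 0.41 without these sets) and, like CTSB, was higher on the 3 arrays than on any other.

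The 1 collagen receptor chain measured of 9, ITGB1, gave 0.08 and -0.13, and -0.08 and 0.11 without sets 2, 7 and 8. Of the TGF-beta and profibrotic list 5 of 20 were measured and none passed: TGFB2, a ligand, gave -1.13 with losartan and 0.76 with angiotensin II (adjusted p = 0.22 and 0.48) and was also highest on the 3 arrays, and CCN1, a matricellular protein, -0.51 and -0.01. SMAD2 and SMAD4, which carry the signal to the nucleus, lay between -0.06 and 0.14. TGFB2 gave -0.73 and 0.15 without sets 2, 7 and 8. CCN1 then gave -0.60 with losartan and 0.46 with angiotensin II. It passed there with losartan and in the difference of the effects, at 1.07. Without these sets 120 of all 8970 tested probes passed with losartan, and 75 did in that difference. The angiotensin II estimate of CCN1 then came from sets 5 and 6 alone, against -0.01 on all arrays. On all arrays CCN1 passed neither of these tests (limma adjusted p = 0.287 with losartan and 0.293 in the difference).

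In bulk tissue, fewer cells of a type and less RNA per cell cannot be told apart. Of 12 fibroblast markers 3 were measured (DCN, COL1A1 and FBLN1), and none passed. The log2 of their summed signal was 4.94 to 5.07 in losartan fetuses and 4.97 to 5.61 in their untreated twins. It was 4.84 to 5.38 in angiotensin II fetuses and 4.98 to 5.203 in their untreated twins. This sum is nearly all DCN and does not show the other markers. The mean log2 level in losartan fetuses was 4.98 for DCN, -2.81 for COL1A1 and -2.23 for FBLN1. Of 12 smooth muscle and pericyte markers 2 were measured, CNN1 and MYLK. The log2 of their summed signal was 2.11 to 2.54 in losartan fetuses and 3.12 to 4.00 in their untreated twins. It was 4.26 to 4.90 in angiotensin II fetuses and 2.53 to 4.25 in their untreated twins. CNN1, the smooth muscle protein calponin, fell with losartan by 1.42 on the log2 scale (limma adjusted p = 0.025) and was 1.09 higher with angiotensin II (adjusted p = 0.45). MYLK, a myosin light chain kinase, gave -0.36 and -0.20 (adjusted p = 0.80 and 0.86), was higher in 1 of 4 angiotensin II pairs, and gave 0.17 and -0.50 without sets 2, 7 and 8. The summed level was lower in all losartan fetuses and higher in all angiotensin II fetuses than in their untreated groups, but this rests on CNN1, since MYLK was not higher with angiotensin II. The part of CNN1 in the COL12A1 values was not tested.

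The other marker lists had few members on the array. Of 17 cardiomyocyte markers 1 was measured, TPM1, at 5.93 to 6.29 in losartan fetuses, 6.13 to 6.31 in their untreated twins, 6.12 to 6.35 in angiotensin II fetuses and 6.16 to 6.53 in their untreated twins. Of 12 endothelial markers 2 were measured, with a log2 summed signal of 1.62 to 1.98, 1.68 to 2.04, 1.63 to 2.04 and 1.94 to 2.10 in these groups. That signal was mostly of the marker PECAM1. Of 14 leukocyte markers 3 were measured, with a log2 summed signal of -0.68 to -0.48, -0.79 to -0.29, -0.72 to 0.06 and -0.56 to -0.40. Of 8 epicardial markers 1 was measured, WT1, at -1.73 to -1.45, -1.80 to -1.16, -1.81 to -1.54 and -1.91 to -1.69. Of 8 erythroid markers 1 was measured, HBB, a beta globin, at 1.64 to 4.69, -0.58 to 3.27, -1.39 to 3.27 and 0.31 to 3.77, so its groups were wide and overlapped. None of these passed a test.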

How the data were processed

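RNA of the left ventricle was labelled with Cy5 and hybridized to a 1-colour Agilent sheep array, 1 array per fetus, per the labels' protocols. The labels call the tissue both free wall and free wall with septum, and the infusion both daily and continuous. The authors deposited scanner output in which each spot has a background-subtracted, detrended intensity from Agilent Feature Extraction 10.7.3.1, and per the file headers no scaling across arrays was applied. A value table was deposited too. Its values behave like a natural log of the spot signal (the lowest r of an array with its own scanner values was 0.998, and column medians were 5.76 to 5.77), but its scale, centring and making are not stated by the authors, and it was used only as an alternative.

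Control spots and outlier spots (3 to 9 per array) were left out, spots of 1 probe were averaged, and log2 values were set against the 75th percentile of the array. Genes were named from the files and a RefSeq gene table (ARS-UI_Ramb_v3.0): 1393 of 15008 probes had a name, and 453 named genes were tested. A gene was represented by its tested probe with the highest mean. Limma 3.58.1 (R 4.3.3) was fitted on 16 arrays with the twin set as a block and 1 term per treatment (6 residual and 3.68 prior degrees of freedom), two-sided, with Benjamini-Hochberg adjustment. The untreated groups were compared without a block. The pairing comes from the labels; deviations from the group means correlated within twin sets at -0.04 to 0.53 (mean 0.24). Normexp correction, as an alternative together with quantile scaling, used an offset of 50. Separate labels stand for separate fetuses. With the twin set as a block, p-values measure the spread of the within-pair differences between twin sets. In the untreated comparison they measure the spread between fetuses. The number of arrays limits precision.

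The fit was tested on simulated data. All named probes of the 4 genes are reported; from other lists, genes past the threshold and up to 3 with the smallest p per treatment were named, and for likeness the 3 genes with the highest r, of which 1 is not reported here. The members and lists were chosen with earlier results of these data known. Analyses in Python 3.11.15 used scipy 1.17.1, numpy 2.4.6, pandas 2.3.3 and matplotlib 3.10.9.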

Additional observations from a re-analysis of the deposited data

Results flagged for a closer look

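COL3A1 probe A_70_P016306 had 1 far value among the untreated twins of the losartan fetuses: the fetus of set 2 was at -0.63 on the log2 scale, and the nearest other was at -1.58. The array is 1 of the 3 that stand apart. Groups of 4 were examined for such values in 28 cases (7 probes in 4 groups), 1 was found, and chance gives about 1 in 20.

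The losartan and angiotensin II effects on COL12A1 differed by 1.61 on the log2 scale, with every losartan pair below 0 and every angiotensin II pair above 0. The limma test of this difference gave an adjusted p of 0.059, and the exact permutation test of the 8 ratios gave an unadjusted p of 0.0286, which the untreated comparison of COL12A1 also reached.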

How the results depend on the processing

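Alternatives changed scaling, background, the filter on dim probes, blocks, slides, probe choice or the sets used. Normexp went with quantile scaling, array row with slide, and single-slide fits left out the pairing. Slide 2 holds all 3 arrays that stand apart, and 1 of them is the only untreated twin of the losartan arm on it. Within slide 2 the losartan difference was -1.52 in COL1A2, -1.89 in COL4A1 and -1.38 in COL12A1. There the angiotensin II difference was 1.06 in COL1A2 and 1.58 in COL4A1, the difference of the effects 2.58, 3.47 and, for COL12A1, 1.74, and the untreated difference 1.61, 1.73 and 1.43. With the authors' value table COL12A1 passed with losartan (-0.98), and COL1A2 (0.99), COL4A1 (1.51) and COL12A1 (1.53) passed in the difference of the effects. COL12A1 passed there also with normexp and quantile scaling (1.60) and with the twin set as a random block (1.61), and COL4A1 with slide as a further block (1.96). Over the alternatives, COL12A1 stayed at -1.38 to -0.88 with losartan (limma adjusted p = 0.037 to 0.34), 0.23 to 0.81 with angiotensin II (0.22 to 1.00) and 1.31 to 1.99 in the difference (0.017 to 0.27).

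Signs turned for angiotensin II in COL1A2 (-0.029) and COL4A1 (-0.20) without sets 2, 7 and 8, and in COL4A1 within slide 1 (-0.030). In COL3A1, near 0, they turned with normexp (0.083), the value table (0.082), slide and array row (0.35), within slide 1 (0.011), with array weights (0.021) and over the mean of its probes (0.17). Leaving out 1 twin set gave -0.32 to 0.48 for COL3A1 with angiotensin II and -0.055 to 0.75 for its difference of the effects. Between chains with angiotensin II, COL12A1 minus COL1A2 turned with normexp (0.068), the value table (0.079) and without sets 2, 7 and 8 (0.84), and ranged over -0.52 to 0.32 with 1 set left out. COL12A1 minus COL4A1 gave 1.01 without the 3 sets and -0.91 to 0.19 with 1 set left out, COL12A1 minus COL3A1 -0.25 to 0.97 with 1 set left out, and COL4A1 minus COL1A2 -0.17 without the 3 sets. With losartan, COL4A1 minus COL3A1 gave 0.036 without the 3 sets (-0.73 to 0.036 with 1 left out) and COL1A2 minus COL3A1 0.073 (-0.48 to 0.073). The causes were not tested.

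Probes past the threshold with losartan, 109, became 434 with the value table, 57 when above background on all arrays, 0 with no twin block, 68 with a random block, 71 with slide as a block, 42 and 546 within slides 1 and 2, 34 with the arm alone, 166 with array weights and 33 to 99 with 1 set left out. In the difference of the effects, 148 became 1734, 98, 3 (no block), 427 (slide block), 38 and 1880 (slides 1 and 2), 48 to 109 with 1 set left out and 75 without sets 2, 7 and 8. With angiotensin II, 0 became 353 within slide 2 and 1 without the 3 sets. For the untreated groups 0 became 226 within slide 2, 1 without the 3 sets and 0 to 1 with 1 set left out. Collagen probes that passed, 0 of 7 in each comparison, were 1 (value table) and 4 (slide 2) with losartan, 2 with angiotensin II and 3 between untreated groups (slide 2), and in the difference 1 (normexp), 5 (value table), 1 (random block), 1 (slide block) and 5 (slide 2). On all 16 arrays without the paired block no collagen probe passed. COL1A2 and COL4A1 gave no value under the filter for all arrays, since each missed it on 1.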
